A study of Rattus norvegicus with 23 samples.

Results

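Lipogenesis and triglyceride genes were followed over rat liver cultures of hepatocytes, of Kupffer cells (KCs), the resident macrophages, and of the sinusoidal endothelium (liver sinusoidal endothelial cells, LSECs). They are the 10 genes Acly, Acaca, Fasn, Me1, Elovl6, Scd, Gpam, Dgat2, Pnpla3 and Thrsp, out of 14218 genes measured, and were chosen by name for their place in fatty acid and triglyceride synthesis. The choice was made with earlier results of these data known. A probe set was used where its only gene symbol was that of a member. This gave 20 probe sets, and each gene was represented by the one whose mean across the 23 arrays was highest.

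The study measured RNA with Affymetrix rat genome arrays to compare simple and organotypic liver cultures. Hepatocyte monolayers (HM), hepatocytes in a collagen sandwich (CS), a layered 3D culture with LSECs (3DHL) and the same culture with KCs as well (3DHLK) each gave 3 arrays of hepatocytes at day 12. The LSECs of the 3DHL and of the 3DHLK models gave 3 arrays each at day 12. The KCs of the 3DHLK model gave only 2 arrays at day 12, since the RNA of others did not meet the authors' quality limit, and KC monolayers gave 3 arrays at day 3. The sample labels describe the latter as KCs at a stage preceding the 3D model, and the name KC monolayers is the paper's. Hepatocytes and LSECs came from the same isolation from female Lewis rats, whereas KCs were bought as cryopreserved cells. No group carried a drug treatment or a genetic change. Hepatocytes were grown as monolayers before a polyelectrolyte membrane and the LSECs were laid over them, and the cells of the 3D models were parted at the end on magnetic beads coated with antibody SE-1 for LSECs or with antibody to CD163 for KCs. No label says that the arrays of a group came from separate animals or cultures, so p-values rest on a spread between arrays that may be only technical.

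De novo lipogenesis turns surplus carbohydrate into fat. Citrate leaves the mitochondrion and is cleaved to acetyl-CoA, which is carboxylated, built into palmitate with reducing power from NADPH, elongated, desaturated and esterified to glycerol to give triglyceride for lipid droplets or lipoproteins. In the liver this is a task of the hepatocyte, and its genes are known to rise together with insulin and sugar supply through the sterol regulatory element binding protein encoded by Srebf1 and the carbohydrate response element binding protein encoded by Mlxipl.

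All levels below are log2 values from RMA, a method that corrects the background, gives all arrays one distribution and summarizes the probes of a probe set. Array medians were 7.41 to 7.53, and interquartile ranges were 2.35 to 3.38. Differences between groups are log2 changes with their standard error (SE) from a limma fit to all 23 arrays, and a change was called at an adjusted p below 0.05 over 14218 genes. The marker lists did not follow the labels of the bead fractions. The mean of 11 hepatocyte markers was 12.92 to 13.32 in HM and CS, 12.54 to 12.91 in the hepatocyte fractions of the 3D models, 13.07 to 13.22 in the LSEC fractions and 12.53 to 12.58 in the KC fraction of the 3DHLK model, against 7.19 to 7.84 in KC monolayers. The mean of 11 endothelial markers lay between 5.83 and 6.15 in the LSEC fractions and between 5.61 and 6.40 in hepatocytes. It was higher in the KC fraction, at 6.66 to 6.73, and in KC monolayers, at 7.27 to 7.37. Stab2, a scavenger receptor of LSECs, averaged 5.85 and 5.98 in the LSEC fractions. The mean of 10 macrophage markers was 11.74 to 12.14 in KC monolayers but 6.80 to 7.09 in the KC fraction, below the 7.41 to 7.73 of 3DHLK hepatocytes. The mean of 6 adipocyte markers ranged from 6.57 to 7.61 over the groups. In bulk fractions such as these, fewer cells of a type and less RNA per cell cannot be told apart.

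The genes lie on 5 chromosomes of the GRCr8 assembly, per RefSeq: Fasn at chr10:106570415-106588581, Acaca at chr10:69511627-69773888 and Acly at chr10:85912402-85964605, with Scd at chr1:253218968-253232101, Thrsp at chr1:161134640-161138964, Dgat2 at chr1:162866237-162896655 and Gpam at chr1:264111599-264176112. Elovl6 lies at chr2:220738095-220845528, Pnpla3 at chr7:117173485-117194065 and Me1 at chr8:96429057-96540244. The RefSeq promoter table for GRCr8 held 6 of the 10 genes, and Fasn, Acaca, Elovl6 and Dgat2 were not in it. In the 250 bases before the table's start site, both strands were searched for the sterol regulatory element TCACNCCAC, the E-box core CACGTG, the CCAAT box CCAAT and the GC box GGGCGG. These 4 motifs do not contain one another. Neither of the first pair was found in the 6 promoters, while 0.974% and 5.59% of all 33469 promoters hold them. A CCAAT box was found in 4 of the 6, against 34% of all promoters, and a GC box in 4 of the 6, against 30.5%. All 250 bases searched for Acly and for Scd, and 201 of those for Gpam, lie inside the annotated gene. The boxes found for Acly and Gpam are within these bases.

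Sequences are shown for Pnpla3 and Thrsp, whose levels spread most over the hepatocyte groups, and for Me1, which followed the other genes least. The capitals mark CCAAT boxes (ATTGG on the opposite strand) and GC boxes (CCGCCC on the opposite strand). They run 5′ to 3′ in the direction of the gene and include only bases outside the annotated gene. For Pnpla3 that is 207 bases, because the last 43 of the 250 lie inside it. The regions are chr7:117173278-117173484 on the plus strand for Pnpla3, chr1:161138965-161139214 on the minus strand for Thrsp and chr8:96540245-96540494 on the minus strand for Me1.
Pnpla3: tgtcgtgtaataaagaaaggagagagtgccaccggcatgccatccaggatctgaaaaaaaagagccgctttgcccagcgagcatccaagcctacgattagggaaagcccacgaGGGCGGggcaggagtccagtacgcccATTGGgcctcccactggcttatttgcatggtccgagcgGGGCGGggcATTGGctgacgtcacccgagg
Thrsp: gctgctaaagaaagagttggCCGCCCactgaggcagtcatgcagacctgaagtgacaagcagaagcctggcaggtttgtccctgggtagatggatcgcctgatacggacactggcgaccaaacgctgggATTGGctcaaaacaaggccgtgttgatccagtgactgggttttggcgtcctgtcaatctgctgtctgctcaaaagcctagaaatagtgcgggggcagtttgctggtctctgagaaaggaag
Me1: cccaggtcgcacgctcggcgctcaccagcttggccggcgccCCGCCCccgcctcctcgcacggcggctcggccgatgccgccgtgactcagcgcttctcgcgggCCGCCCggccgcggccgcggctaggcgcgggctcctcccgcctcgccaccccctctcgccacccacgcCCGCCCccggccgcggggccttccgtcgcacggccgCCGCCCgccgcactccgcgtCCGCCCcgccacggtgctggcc

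CS hepatocytes held more RNA of nearly all of these genes than HM hepatocytes. Of the 10 genes, 9 rose, none fell and Gpam did not pass the test, where 11.1% of all genes were called higher and 10.7% lower. The median change of the 10 genes was 1.13, against 0.04 for all genes. The arrays of the groups did not overlap for any of the 10 genes, as for 46.3% of all genes. Hepatocyte markers were also higher in CS at 5 of 11 genes and lower at none, with a median of 0.32, and stellate cell and fibroblast markers at 7 of 12 with 1 lower and a median of 0.78. Their part in the result was not tested.

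The steps from citrate to palmitate moved together. Fasn, the synthase that assembles palmitate, was at 10.55, 10.63 and 10.44 in HM and at 11.68, 12.12 and 12.02 in CS. Acaca, the carboxylase that makes malonyl-CoA, was at 10.14, 10.31 and 10.23 in HM and at 11.16, 11.47 and 11.39 in CS. Acly, which cleaves citrate to acetyl-CoA, was at 10.74, 10.77 and 10.69 in HM and at 11.28, 11.69 and 11.67 in CS. The first CS array was the lowest of its group for all 3 genes and still lay above each HM array. The log2 changes were 1.40 (SE 0.15, adjusted p = 7.61e-07) for Fasn, 1.11 (SE 0.14, adjusted p = 5.94e-06) for Acaca and 0.81 (SE 0.18, adjusted p = 0.00208) for Acly. Me1, the malic enzyme that supplies NADPH, changed less, from 11.13, 11.21 and 11.17 in HM to 11.70, 11.43 and 11.60 in CS, a change of 0.40 (SE 0.14, adjusted p = 0.039).

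Chain modification rose as well. Scd, the desaturase that makes oleate from stearate, was at 11.81, 11.59 and 11.49 in HM and at 13.45, 13.51 and 13.44 in CS, 3.57-fold higher (adjusted p = 2.09e-06). Elovl6, which elongates palmitate to stearate, was at 8.57, 8.29 and 8.65 in HM and at 9.52, 9.73 and 9.68 in CS, 2.20-fold higher (adjusted p = 9.66e-05). For both genes the gap between the groups was wider than the whole spread within either group.

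The largest rises among the 10 genes were those of Thrsp and Pnpla3. Thrsp, a small protein of lipogenic tissue that responds to thyroid hormone and carbohydrate, was at 10.68, 10.48 and 10.53 in HM and at 12.72, 12.95 and 12.91 in CS. Its change of 2.30 (SE 0.15, 4.92-fold, adjusted p = 3.28e-10) had rank 12 among the rises of all 14218 genes. Pnpla3, a lipid droplet protein with lipase and acyltransferase activity, was at 7.53, 7.40 and 7.38 in HM and at 9.69, 9.60 and 9.71 in CS, a change of 2.23 (SE 0.19, 4.69-fold, adjusted p = 1.72e-08) at rank 17. By contrast, Dgat2 and Gpam, enzymes of esterification, changed less than these, though Dgat2 changed more than Me1. Dgat2, which adds the last acyl chain of triglyceride, changed by 0.52 (SE 0.10, adjusted p = 0.000358), from 10.77, 10.89 and 10.84 to 11.33, 11.30 and 11.44. Gpam, the mitochondrial acyltransferase that opens glycerolipid synthesis, was at 9.53, 9.59 and 9.54 in HM and at 9.87, 9.63 and 9.75 in CS, and its change of 0.20 (SE 0.15, adjusted p = 0.386) was not called.

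**Figure D1:**
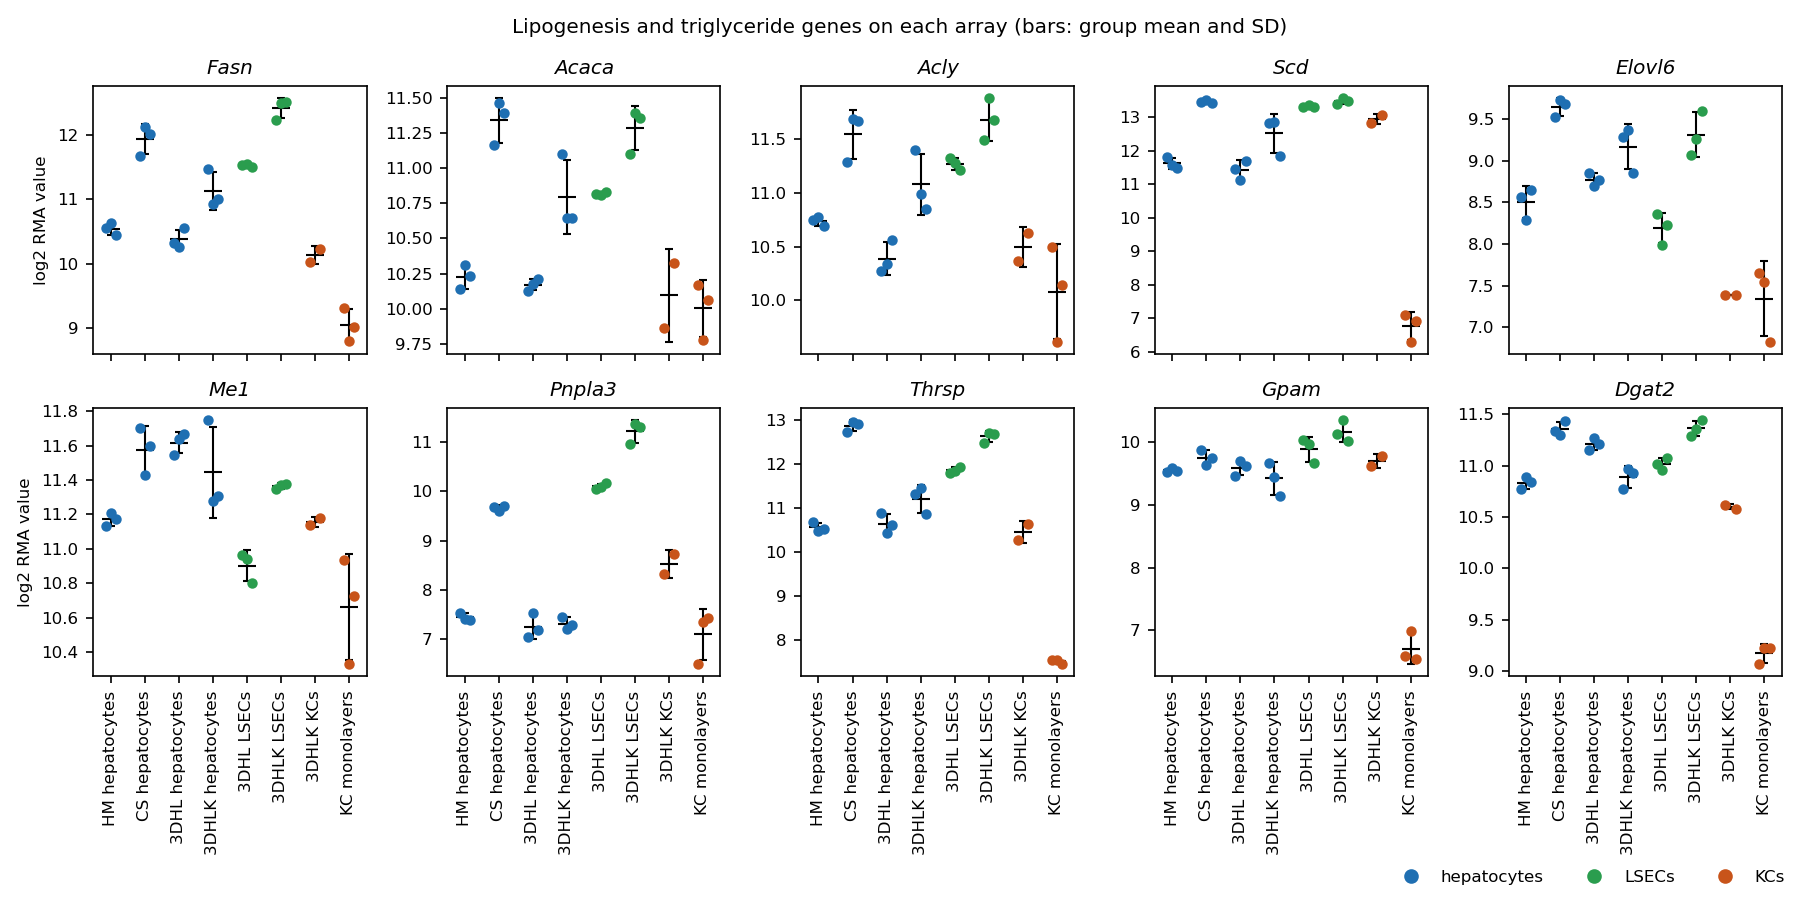
Log2 RMA value (y axis, a separate scale for each gene) of the 10 genes on each array, by group (x axis). Dots are arrays, blue for hepatocytes, green for LSECs and orange for KCs, and bars are the group mean and SD (3 arrays, 2 for 3DHLK KCs). Pnpla3 was between 7.03 and 7.53 in the HM, 3DHL and 3DHLK hepatocytes and between 10.06 and 11.38 in the LSEC fractions, and Scd was between 6.30 and 7.11 in KC monolayers.

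Hepatocytes of the 3DHL model lay near HM, and below CS, for the genes that rose most in CS. Against HM, 2 of the 10 genes rose and none fell, where 7.04% of all genes were called higher and 4.7% lower, and the median change of the 10 genes was -0.01 against 0.01 for all genes. Thrsp was at 10.89, 10.44 and 10.61 in 3DHL hepatocytes, and Pnpla3 was at 7.03, 7.52 and 7.17. Both sets of arrays overlapped those of HM. Fasn at 10.32, 10.26 and 10.55, Acaca at 10.13, 10.17 and 10.21 and Scd at 11.47, 11.13 and 11.71 also overlapped HM, with log2 changes of -0.16 (SE 0.15), -0.06 (SE 0.14) and -0.20 (SE 0.22). Acly at 10.27, 10.33 and 10.56 lay below all HM arrays, but its change of -0.35 (SE 0.18, adjusted p = 0.236) was not called. The genes that rose were Me1, at 11.55, 11.64 and 11.66 with a change of 0.45 (SE 0.14, adjusted p = 0.0372), and Dgat2, at 11.15, 11.27 and 11.21 with a change of 0.37 (SE 0.10, adjusted p = 0.0124). The second probe set of Dgat2, at 0.33 (adjusted p = 0.129), was not called, while that of Me1, at 0.66 (adjusted p = 0.0425), was. The count of 2 genes was 0 under housekeeping centring and 0 or 1 when any HM or 3DHL hepatocyte array was left out.

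Against CS, 7 of the 10 genes fell in 3DHL hepatocytes and none rose, where 9.03% of all genes were called lower and 12.8% higher. The median change of the 10 genes was -1.16 against -0.02 for all genes. Pnpla3 fell by 2.43 (SE 0.19, adjusted p = 4.45e-09), Thrsp by 2.22 (SE 0.15, adjusted p = 3.44e-10), Scd by 2.04 (SE 0.22, adjusted p = 4.88e-07) and Fasn by 1.56 (SE 0.15, adjusted p = 1.51e-07). Acaca, Acly and Elovl6 fell by 1.17, 1.16 and 0.87. Me1, Gpam and Dgat2 had changes of 0.04, -0.16 and -0.15, none of them called. Hepatocyte markers moved with this comparison, since 7 of 11 fell and none rose in 3DHL hepatocytes against CS, with a median of -0.54. The part of that shift in the result was not tested. The comparison shares the CS arrays with that of CS against HM.

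**Figure D2:**
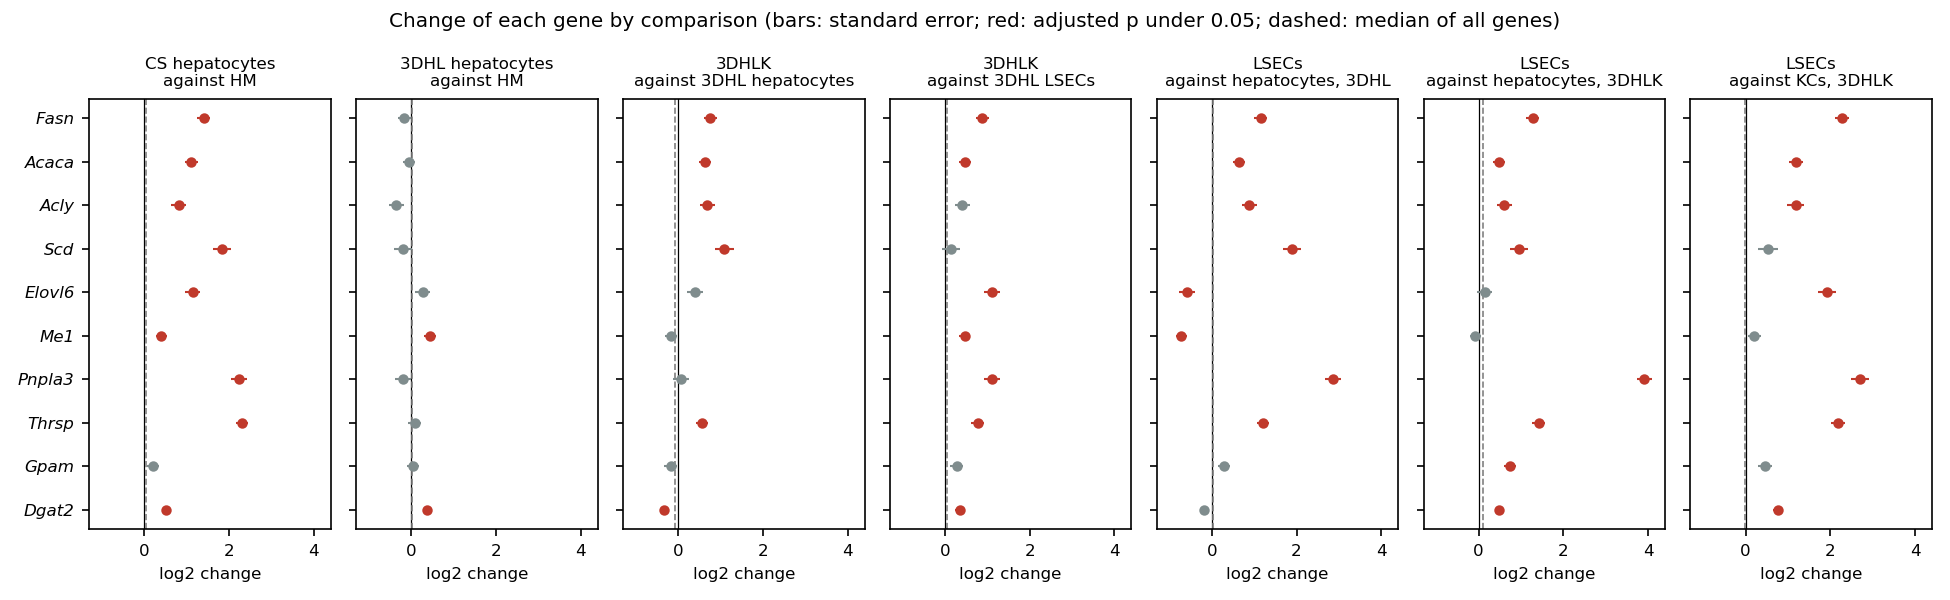
Log2 change (x axis) of each of the 10 genes (y axis) in 7 comparisons, with SE bars. Red dots passed an adjusted p of 0.05 and grey dots did not, and the dashed line is the median change of all genes. CS hepatocytes exceeded HM at 9 genes and 3DHL hepatocytes exceeded HM at 2, while Pnpla3 had the largest change of the 10 genes in each of the comparisons of LSECs with another fraction.

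The fraction labelled LSECs held more RNA of most of these genes than the hepatocyte fraction of the same model. In the 3DHL model 6 genes were higher, 2 were lower and 2 were not called, where 18.5% of all genes were called higher and 21.9% lower. In the 3DHLK model 8 were higher and none was lower, where 34.7% of all genes were called higher and 25.7% lower. The medians over the 10 genes were 0.77 and 0.67, against 0.02 and 0.11 for all genes.

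Pnpla3 differed most of the 10 genes. It was at 10.06, 10.10 and 10.17 in the 3DHL LSEC fraction, against 7.03, 7.52 and 7.17 in the hepatocytes of that model, 7.30-fold higher (log2 change 2.87, SE 0.19, adjusted p = 1.86e-10). In the 3DHLK model it was at 10.96, 11.38 and 11.32 in the LSEC fraction and at 7.44, 7.20 and 7.29 in hepatocytes, 15.1-fold higher (log2 change 3.91, SE 0.19, adjusted p = 5.97e-13). No array came near the other fraction in either model. Among the rises of all 14218 genes these changes had ranks 9 and 3. Both LSEC groups also lay above the CS hepatocytes, at 9.60 to 9.71. The other probe sets of the gene also put the 3DHLK LSEC fraction first and the KC fraction of that model behind the 3DHL LSEC fraction and CS, which changed places for 1 of them. Their log2 changes between LSECs and hepatocytes were 2.45 and 3.43 in the 3DHL model and 3.91 and 5.27 in the 3DHLK model. The hepatocyte levels in these models lay near the array medians of 7.41 to 7.53, or below them on the other probe sets. The size of the fold therefore depends on the probe set.

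**Figure D3:**
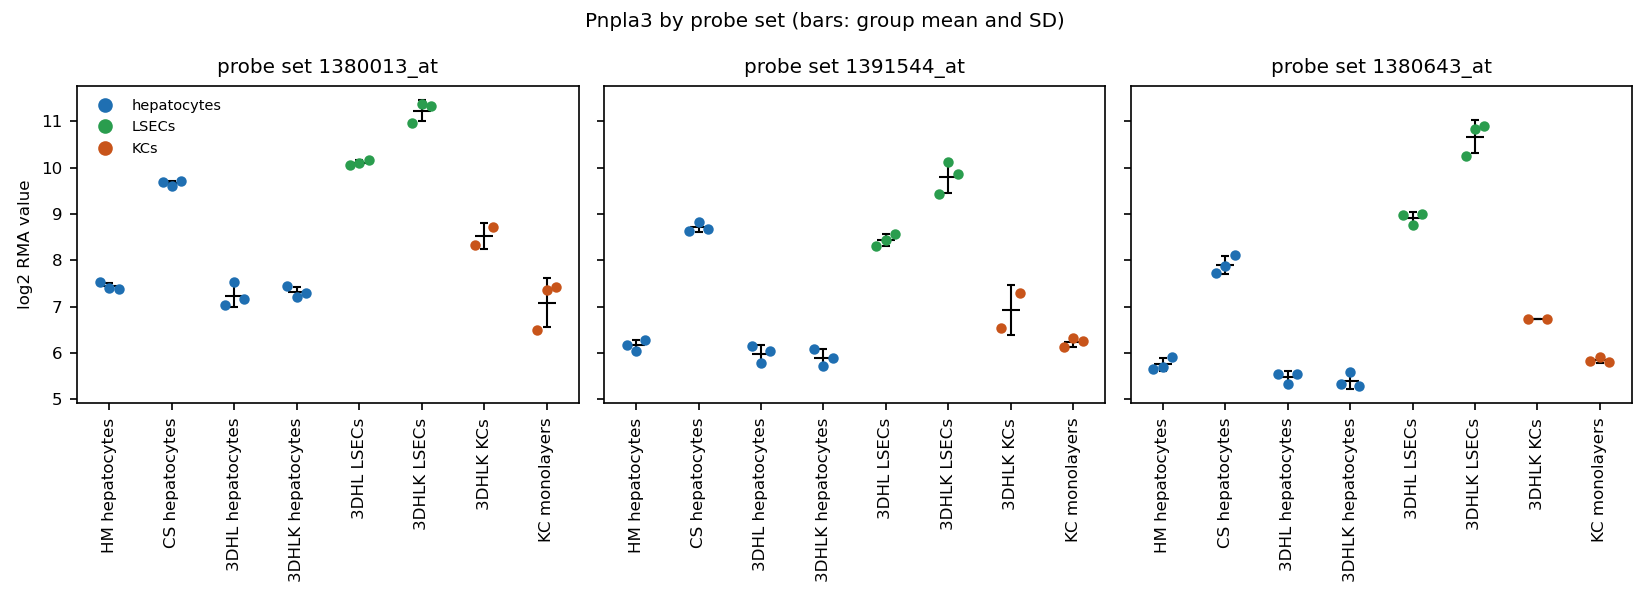
Log2 RMA value (y axis) of the 3 probe sets of Pnpla3 in the 8 groups (x axis), 1 panel for each. Dots are arrays, blue for hepatocytes, green for LSECs and orange for KCs, and bars are the group mean and SD (3 arrays, 2 for 3DHLK KCs). The 3DHLK LSEC fraction was highest on all 3 probe sets, at means of 11.22, 9.80 and 10.67.

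Scd was at 13.32, 13.36 and 13.31 in the 3DHL LSEC fraction and at 11.47, 11.13 and 11.71 in hepatocytes, 3.73-fold higher (adjusted p = 9.67e-07), and 1.94-fold higher in the 3DHLK model (adjusted p = 0.000813). Fasn was at 11.54, 11.55 and 11.50 in the 3DHL LSEC fraction, 2.22-fold above the hepatocytes (adjusted p = 6.91e-06), and at 12.23, 12.50 and 12.51 in the 3DHLK LSEC fraction, 2.43-fold above them (adjusted p = 5.29e-07). Thrsp was at 11.78, 11.84 and 11.93 and then at 12.48, 12.70 and 12.69 in the LSEC fractions, 2.31-fold and 2.66-fold higher (adjusted p = 1.90e-06 and 6.25e-08). The LSEC arrays of each model were tight and lay above all hepatocyte arrays of that model for each of these 3 genes. Such separation was common, since the fractions did not overlap for 66.3% of all genes in the 3DHL model and 71.9% in the 3DHLK model. Of the 10 genes, 9 and 8 did not overlap. Acly and Acaca were 1.84-fold and 1.57-fold higher in the 3DHL LSEC fraction and 1.52-fold and 1.40-fold higher in that of the 3DHLK model.

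The remaining genes gave another pattern. Me1 was at 10.96, 10.94 and 10.80 in the 3DHL LSEC fraction, below all hepatocyte arrays of that model, a log2 change of -0.72 (SE 0.14, adjusted p = 0.00039). Elovl6 was at 8.35, 7.99 and 8.23 and also fell (log2 change -0.58, SE 0.18, adjusted p = 0.0166), although its second probe set rose by 0.36 (adjusted p = 0.0302). The direction of Elovl6 in this comparison therefore depends on the probe set. In the 3DHLK model neither gene differed past the threshold, with changes of -0.08 (SE 0.14) for Me1 and 0.14 (SE 0.18) for Elovl6, but the second probe set of Elovl6 was called higher there too, at 0.91 (adjusted p = 4.36e-06). Gpam and Dgat2 were not called in the 3DHL model, although the second probe set of Dgat2 was higher by 0.35 (adjusted p = 0.0434). They were 1.67-fold and 1.39-fold higher in the 3DHLK LSEC fraction (adjusted p = 0.000201 and 0.000268). Hepatocyte markers were higher at 3 of 11 genes in the LSEC fraction of the 3DHL model and at 6 of 11, with 1 lower, in that of the 3DHLK model, with medians of 0.24 and 0.33. Stellate cell and fibroblast markers were lower at 7 of 12 and 10 of 12, with the mean level at 6.14 to 6.51 in the LSEC fractions, 7.81 to 8.26 in 3DHL hepatocytes and 9.68 to 9.88 in 3DHLK hepatocytes. The part of these shifts in the result was not tested.

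With KCs added, the hepatocytes of the 3D model held more RNA of Scd, Fasn and Acly. Between 3DHL and 3DHLK hepatocytes 5 genes rose and 1 fell, where 7.72% of all genes were called higher and 3.76% lower, and the median of the 10 genes was 0.48 against -0.08 for all genes. Scd was at 12.85, 12.87 and 11.86 in 3DHLK hepatocytes and rose by 1.09 (SE 0.22, adjusted p = 0.00122). Fasn was at 11.47, 10.92 and 11.01 and rose by 0.76 (SE 0.15, adjusted p = 0.00148). Acly was at 11.40, 10.99 and 10.85 and rose by 0.69 (SE 0.18, adjusted p = 0.0125). All 3DHLK arrays lay above all 3DHL arrays for these 3 genes, though they were spread, with array 3 lowest for Scd and array 1 highest for Fasn and Acly. Arrays of these groups did not overlap for 6 of the 10 genes and for 36.5% of all genes. Acaca, at 11.10, 10.64 and 10.64, rose by 0.63 (SE 0.14, adjusted p = 0.00443). Thrsp, at 11.32, 11.45 and 10.85, rose by 0.56 (SE 0.15, adjusted p = 0.0118), with array 3 under the highest 3DHL array at 10.89. Dgat2 fell by 0.32 (SE 0.10, adjusted p = 0.0305), from 11.15, 11.27 and 11.21 to 10.77, 10.97 and 10.93.

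The other probe sets did not give the same calls for 3 of these 6 genes. The second probe set of Acaca was at 0.30 (adjusted p = 0.297) and that of Dgat2 at -0.28 (adjusted p = 0.194), neither called, and Scd and Acly had no other, while that of Fasn rose by 0.68 (adjusted p = 0.022). Neither of the other probe sets of Thrsp was called, at changes of -0.40 and 0.00, and the SD over the 3DHLK arrays was 1.43 and 0.68 for them. Pnpla3 was not called, with 3DHLK hepatocytes at 7.20 to 7.44 and a change of 0.07 (SE 0.19, adjusted p = 0.862). Stellate cell and fibroblast markers rose at 7 of 12 genes with a median of 1.97, and Col1a1, a fibrillar collagen, averaged 10.87 and 13.01 in the 3DHL and 3DHLK hepatocytes. Macrophage markers rose at 4 of 10, with a mean level of 6.56 to 6.87 and then 7.41 to 7.73. Their part in the result was not tested. The count of 6 called genes was 3 without the second 3DHL hepatocyte array or without the first 3DHLK hepatocyte array.

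In the LSEC fraction 7 genes rose with KCs and none fell, where 3.58% of all genes were called higher and 3.89% lower, and the median of the 10 genes was 0.47 against 0.04 for all genes. Elovl6 was at 8.35, 7.99 and 8.23 in the 3DHL LSEC fraction and at 9.07, 9.26 and 9.60 in that of the 3DHLK model, 2.17-fold higher (adjusted p = 0.000436). Pnpla3 was 2.16-fold higher (adjusted p = 0.000536). These had ranks 58 and 59 among the rises of all genes. Fasn was 1.85-fold higher (adjusted p = 0.000676) and Thrsp 1.70-fold higher (adjusted p = 0.00158), with no overlap between the arrays. Arrays of these groups did not overlap for 9 of the 10 genes and for 37.3% of all genes. Smaller rises were called for Acaca (0.47, SE 0.14, adjusted p = 0.0488), Me1 (0.46, SE 0.14, adjusted p = 0.0406) and Dgat2 (0.35, SE 0.10, adjusted p = 0.0274). The other probe set of Dgat2, at 0.29 (adjusted p = 0.250), and 1 of those of Thrsp, at 1.04 (adjusted p = 0.202), were not called. Of all 10 other probe sets, 8 gave the call of the chosen one. Acly, Gpam and Scd had changes of 0.41 (SE 0.18), 0.28 (SE 0.15) and 0.15 (SE 0.22), not called. The Scd level was 13.31 to 13.36 without KCs and 13.39 to 13.58 with them. Of the hepatocyte markers none was called higher and 1 of 11 fell, but their median change was 0.21 and their mean level went from 13.07 to 13.08 without KCs to 13.20 to 13.22 with them. Macrophage markers were higher at 2 of 10, with a mean level of 6.61 to 6.69 and then 6.85 to 7.07. The part of these shifts in the result was not tested. The count of 7 was 6 with the replicate number as a block, where Acaca lost its call (adjusted p = 0.0676). It was 4 without 3DHL LSEC array 1 or 2, and also without 3DHLK LSEC array 2 or 3.

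Whether KCs changed the LSEC and the hepatocyte fractions to a different extent was tested as a difference of the 2 changes. It was higher in the LSEC fraction for 3 of the 10 genes and lower for none, where 3.51% of all genes were called higher and 6.81% lower. Pnpla3 had a difference of 1.04 (SE 0.27, adjusted p = 0.013), Dgat2 of 0.67 (SE 0.13, adjusted p = 0.0021) and Me1 of 0.64 (SE 0.19, adjusted p = 0.0378). For Dgat2 the changes were called in opposite directions on the probe set chosen, and on its other probe set neither was called. Scd had the largest difference the other way, -0.94 (SE 0.31, adjusted p = 0.0532), and Elovl6 a difference of 0.72 (SE 0.26, adjusted p = 0.0853), neither past the threshold. Of 31 alternatives, 10 called the Scd difference, at -1.28 to -0.77 over all of them, and 5 that of Elovl6, at 0.57 to 0.84. Alternatives that leave out an array of another group keep the difference and change only its error and adjusted p. The split of all genes in this test turned from 499 higher and 968 lower to 1497 and 1407 with only the arrays compared and to 1632 and 1410 without the KC monolayers. Fasn, Acaca, Acly and Thrsp had differences of 0.13, -0.16, -0.28 and 0.20 with SEs of 0.20 to 0.25.

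**Figure D4:**
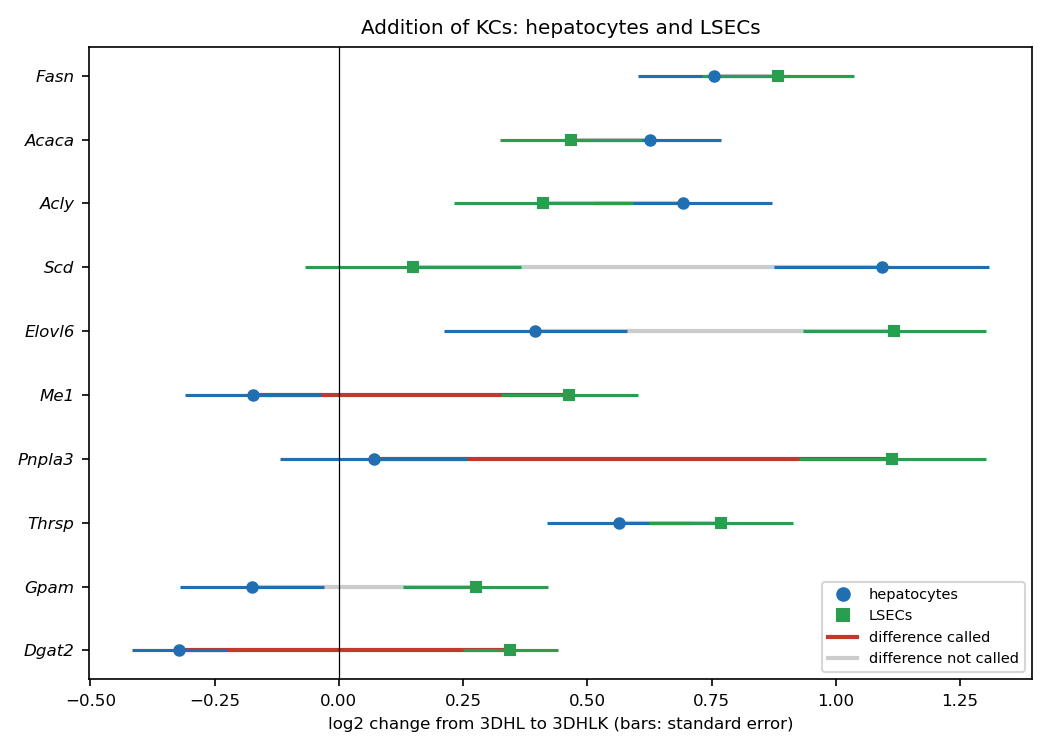
Log2 change from the 3DHL to the 3DHLK model (x axis) of each of the 10 genes (y axis), for hepatocytes (blue circles) and LSECs (green squares), with SE bars. A red line joins the changes where their difference passed the test, as for Me1, Pnpla3 and Dgat2, and a grey line where it did not.

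KC monolayers were the lowest group for all 10 genes on the probe sets chosen, and for several by a wide margin. On both other probe sets of Pnpla3 they were not, at means of 6.24 and 5.85 against 5.90 and 5.40 in 3DHLK hepatocytes. In the KC fraction of the 3DHLK model 7 genes were higher than in KC monolayers and none was lower, where 44.5% of all genes were called higher and 20.8% lower, and the median of the 10 genes was 1.26 against 0.27 for all genes. Scd was at 7.11, 6.30 and 6.92 in KC monolayers and at 12.85 and 13.06 in the KC fraction, a change of 6.18 (SE 0.24, 72.5-fold, adjusted p = 1.65e-15) at rank 15 of all genes. Gpam was at 6.59, 6.99 and 6.55 and then at 9.63 and 9.78 (7.98-fold, adjusted p = 4.87e-13). Thrsp was at 7.54, 7.55 and 7.46 and then at 10.27 and 10.63 (7.61-fold, adjusted p = 7.34e-13). The groups were far apart for these 3 genes. Pnpla3 and Dgat2 were 2.70-fold and 2.69-fold higher, and Fasn, at 9.31, 8.81 and 9.02 in KC monolayers and at 10.03 and 10.23 in the KC fraction, was 2.12-fold higher. Me1 was higher by 0.49 (SE 0.15, adjusted p = 0.00792), and this change was -0.22 under cyclic loess. Acaca, Acly and Elovl6 overlapped between the groups, at changes of 0.09, 0.42 and 0.05 that turned negative under cyclic loess, where Acaca was called lower (log2 change -0.56, adjusted p = 0.00339), although the second probe sets of Acaca and Elovl6 were called higher at 0.81 and 1.34. All 11 hepatocyte markers rose, with a median of 5.14, and all 10 macrophage markers fell, with a median of -5.12. The part of that shift in the result was not tested, and day, culture and cell makeup cannot be told apart here.

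Within the 3DHLK model the KC fraction was called below both others for Fasn, Acaca, Acly, Elovl6, Thrsp and Dgat2 on the probe sets chosen. Hepatocytes exceeded it at 6 genes and were lower at 1, where 25.9% of all genes were called higher and 30.6% lower, and the median over the 10 genes was 0.43. Elovl6, at 7.39 on both KC arrays, was 3.44-fold higher in hepatocytes (adjusted p = 5.10e-07), and Fasn, at means of 11.13 in hepatocytes and 10.13 in the KC fraction, was also higher (adjusted p = 6.10e-05). Pnpla3 went the other way, at 8.32 and 8.72 in the KC fraction, 2.32-fold above hepatocytes (adjusted p = 7.22e-05). Of the other probe sets only 5 of 10 gave the call of the chosen one, and those of Acaca (0.30), Dgat2 (-0.29) and Thrsp (-0.18 and 0.25) were not called. Those of Fasn and Elovl6 were called higher in hepatocytes, at 1.83 and 0.85, as was that of Me1 at 0.88. Under cyclic loess the split of all genes turned from 3684 higher and 4350 lower to 3847 and 3434. Of the 12 markers of stellate cells and fibroblasts, 9 were higher in hepatocytes than in the KC fraction, with a median of 4.34, endothelial markers were lower at 8 of 11 and higher at 3, and macrophage markers were higher at 5 of 10 and lower at 3. Their part in the result was not tested. The LSEC fraction exceeded the KC fraction at 7 genes and was lower at none, where 9.73% of all genes were called higher and 5.35% lower, and the median was 1.19 against -0.02 for all genes. Pnpla3, Fasn and Thrsp were 6.50-fold, 4.86-fold and 4.52-fold higher there (adjusted p = 6.49e-09, 4.06e-09 and 4.06e-09). The LSEC fraction also had 8 of 11 hepatocyte markers higher than the KC fraction, with a median of 0.63, and its part in the result was not tested.

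Across the 8 groups the genes differed in how far and in which order they ranged. Over the groups at day 12 the range of group means was 3.98 for Pnpla3, 2.41 for Thrsp, 2.28 for Fasn and 2.25 for Elovl6, but 0.72 for Me1, 0.74 for Gpam and 0.76 for Dgat2. The 3DHLK LSEC fraction had the highest mean for Fasn, Acly, Scd, Pnpla3, Gpam and Dgat2, and CS hepatocytes had it for Acaca, Elovl6 and Thrsp. These groups stood first and next in the order and overlapped for Acaca, Acly, Scd, Elovl6 and Dgat2, and did not overlap for Fasn and Thrsp. For Pnpla3 the 3DHL LSEC fraction stood next and overlapped neither of them. For Gpam the next group was the 3DHL LSEC fraction, which overlapped it. For Me1 the 3DHL hepatocytes stood first at a mean of 11.62 ± 0.06 (SD, n = 3), and the next groups down to 3DHLK LSECs overlapped their neighbours. At the other end, HM and 3DHL hepatocytes overlapped for Fasn, Acaca, Scd, Thrsp, Gpam and Pnpla3.

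Over the 20 arrays at day 12, the Pearson correlations of the 45 pairs of genes ran from -0.23 to 0.97 with a median of 0.64. The arrays of a group share their culture and normalization, so these values describe the groups as much as the genes. Fasn, Acaca and Acly formed the tightest set, at 0.96 to 0.97, and Me1 the loosest gene, with a median of 0.08 over its 9 pairs. Among genes outside the 10, with uncharacterised loci skipped, the closest to Fasn over these arrays were Smlr1 (r = 0.98) and Slc30a10 (r = 0.97), to Pnpla3 Erg28 (r = 0.98) and Kmo (r = 0.97), and to Thrsp Asgr1 (r = 0.97) and Sdhaf1 (r = 0.97). Elovl6 lay closest to Gnmt and Ftcd (r = 0.97 for both), and Me1 to Cat, the catalase gene (r = 0.90), and Traf3ip3 (r = 0.88). The closest to Acaca were Lcat and Nnmt (r = 0.95 for both), to Acly Nnmt (r = 0.96) and Smlr1 (r = 0.95), and to Scd Sod2 (r = 0.94) and Slk (r = 0.92). Gpam lay closest to Vkorc1l1 and Tmem120b (r = 0.89 for both), and Dgat2 to C8h11orf52 and Mrps21 (r = 0.93 for both).

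The regulators of lipogenesis were followed over the same comparisons. Of 18 regulator genes, 7 rose and none fell in CS against HM, with a median of 0.31. The shares of all genes called higher and lower there were 11.1% and 10.7%. Srebf1 averaged 9.03 ± 0.09 in HM and 10.05 ± 0.13 in CS (SD, n = 3), a change of 1.03 (SE 0.13, adjusted p = 4.92e-06). Mlxipl rose by 0.97 (SE 0.18, adjusted p = 0.000376), and Nr1h3, which encodes the liver X receptor alpha, rose by 0.86 (SE 0.14, adjusted p = 7.14e-05). Insig1, which holds the sterol regulatory element binding proteins in the endoplasmic reticulum, rose by 1.84 (SE 0.16, adjusted p = 1.72e-08). All 4 were thus higher in CS. In 3DHL hepatocytes against CS, Srebf1 fell by 1.35 (SE 0.13, adjusted p = 1.06e-07) and Insig1 by 1.67 (SE 0.16, adjusted p = 6.83e-08), while Mlxipl and Nr1h3, at -0.30 and -0.34, were not called. Against HM the 3DHL hepatocytes had Mlxipl higher by 0.66 (SE 0.18, adjusted p = 0.017) and Nr1h3 by 0.52 (SE 0.14, adjusted p = 0.0137), with Srebf1 at -0.32 (SE 0.13, adjusted p = 0.112) and Insig1 at 0.17 (SE 0.16, adjusted p = 0.533).

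With KCs, limma called 0 of the 18 regulators in hepatocytes, where 7.72% of all genes were called higher and 3.76% lower. There was 1 at an unadjusted p under 0.05, and the changes of Srebf1, Mlxipl, Nr1h3 and Insig1 were 0.23, 0.12, -0.10 and -0.01. In the LSEC fraction only Insig2 (0.73, SE 0.14, adjusted p = 0.00205) and Insig1 (0.63, SE 0.16, adjusted p = 0.013) rose, where 3.58% of all genes were called higher. Srebf1 was at -0.21 there (SE 0.13, adjusted p = 0.409). The difference of the KC effects between the fractions was called for 2 of the 18, Usf2 at 0.94 (adjusted p = 0.0307) and Mlx at 0.60 (adjusted p = 0.0484), and for none of Srebf1, Mlxipl, Nr1h3 and Insig1. The shares of all genes called higher and lower in that test were 3.51% and 6.81%. The LSEC fractions exceeded the hepatocytes of the same model for Srebf1 by 1.08 and 0.64, for Mlxipl by 0.98 and 0.91 and for Insig1 by 0.84 and 1.48, all called, while Nr1h3 at -0.26 and 0.22 was not. Among the KC groups, Mlxipl was higher in the KC fraction than in KC monolayers by 2.04 (SE 0.20, adjusted p = 9.03e-09), and Srebf1, at 0.29 (SE 0.14, adjusted p = 0.0848), was not called. Hepatocyte markers were higher and macrophage markers lower in that KC fraction, and their part was not tested. Against the KC fraction of the 3DHLK model, hepatocytes were higher for Nr1h3 by 0.40 (adjusted p = 0.0285) and the LSEC fraction was higher for all 4 of these regulators, by 0.62 to 1.18.

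**Figure D5:**
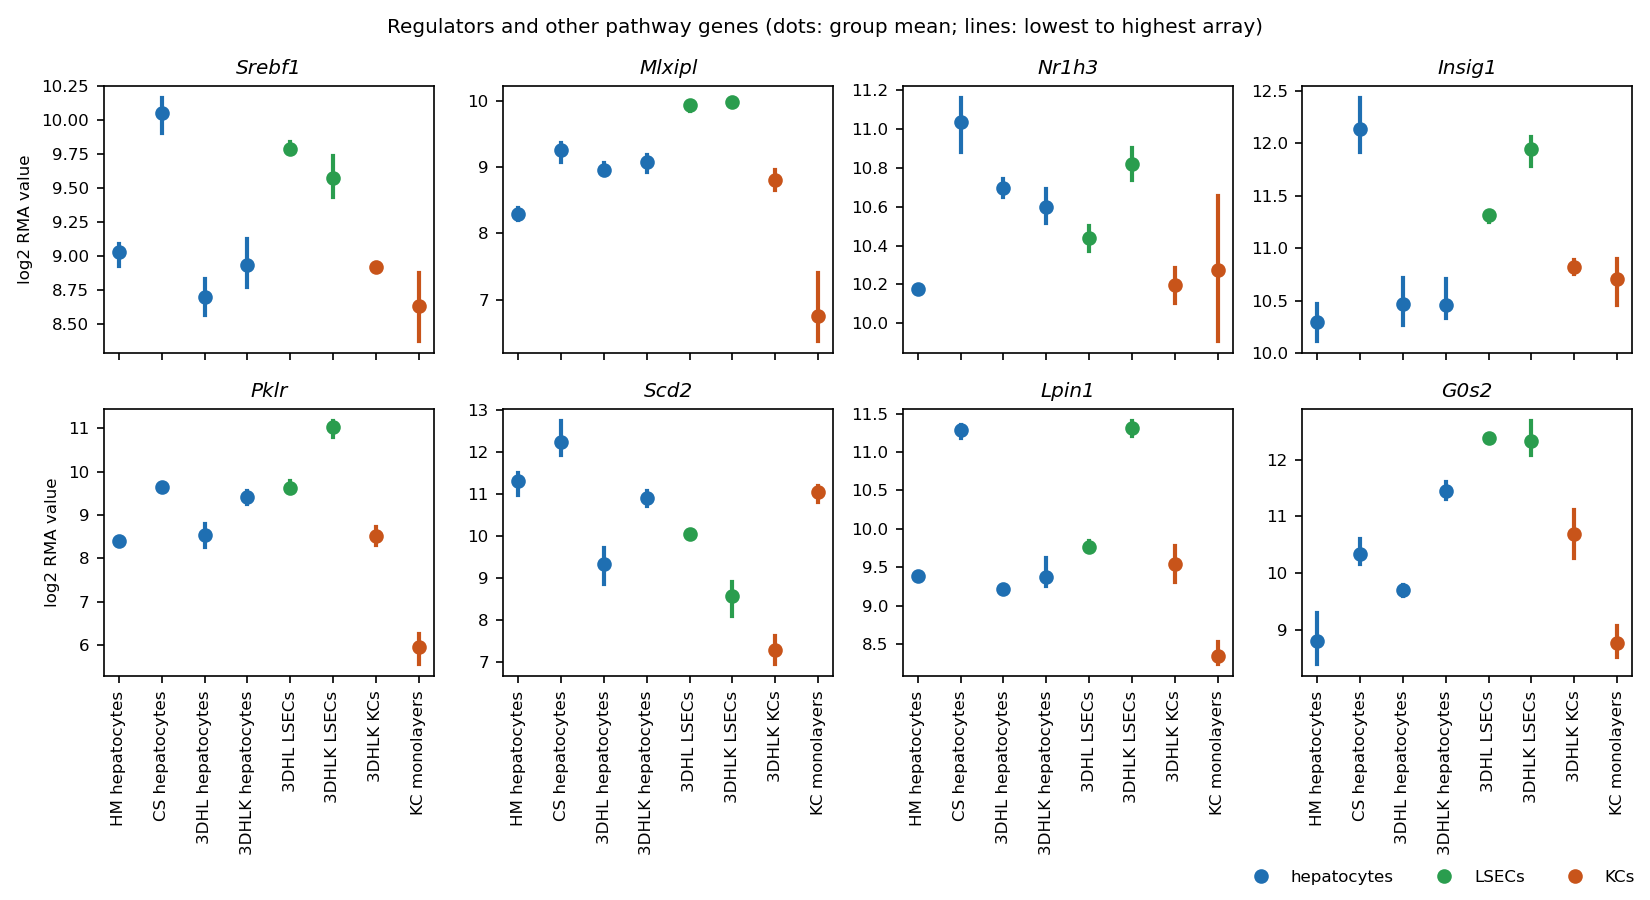
Log2 RMA value (y axis, a separate scale for each gene) of 4 regulators and, from each of 4 other lists, the gene named in most comparisons, by group (x axis). Dots are group means and lines run from the lowest to the highest array, blue for hepatocytes, green for LSECs and orange for KCs. Srebf1 and Insig1 were highest in CS hepatocytes, and Scd2 was low in the 3DHLK LSEC and KC fractions at means of 8.57 and 7.28.

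The enzymes around the 10 genes fell into different patterns. Of 9 measured genes of carbon and NADPH supply, 5 rose in CS against HM, where 11.1% of all genes were called higher. They were led by Acss2, which makes acetyl-CoA from acetate (1.51, SE 0.26, adjusted p = 0.0002), and Pklr, the liver pyruvate kinase (1.24, SE 0.17, adjusted p = 9.26e-06). Pklr was called in 9 of the 11 comparisons. It was higher with KCs in hepatocytes by 0.89 and in the LSEC fraction by 1.39, and the 3DHLK LSEC fraction stood highest, at 11.02 ± 0.20 (SD, n = 3). With KCs, 1 of the 9 genes rose in hepatocytes and 3 in the LSEC fraction, with medians of -0.02 and 0.28. The shares of all genes called higher were 7.72% and 3.58%, so the count in hepatocytes lay near that share.

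Of 10 genes of elongation and desaturation outside the members, 6 rose in CS against HM, where 11.1% of all genes were called higher. Among them were Elovl2, by 2.83 (SE 0.22, adjusted p = 4.78e-09), and Fads2, a desaturase of polyunsaturated fatty acids, by 2.27 (SE 0.17, adjusted p = 3.22e-09). Fads2 was higher in the LSEC fractions than in hepatocytes by 2.83 and 3.17. Scd2, another stearoyl-CoA desaturase, moved in the direction of Scd in some comparisons and against it in others. In 3DHL hepatocytes against HM its log2 change was -1.96 (SE 0.24, adjusted p = 1.06e-05). With KCs it rose in hepatocytes by 1.56 (SE 0.24, adjusted p = 9.19e-05) and had a log2 change of -1.48 in the LSEC fraction (SE 0.24, adjusted p = 0.000456). The difference of these KC effects was -3.03 (SE 0.35, adjusted p = 3.63e-06). As for Scd, it was lower in 3DHL hepatocytes than in CS (log2 change -2.90, SE 0.24) and higher in the LSEC fraction than in the hepatocytes of the 3DHL model (0.72, SE 0.24, adjusted p = 0.0244), but it was lower in the LSEC fraction of the 3DHLK model (log2 change -2.32, SE 0.24). In the KC fraction Scd2 was lower than in KC monolayers (log2 change -3.75, SE 0.27), where Scd was higher. The part of the marker shift between these KC groups was not tested.

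Of 19 genes of triglyceride assembly, 11 rose and 1 fell in CS against HM, with a median of 0.44. The shares of all genes called higher and lower there were 11.1% and 10.7%. Lpin1, a phosphatidate phosphatase, rose by 1.90 (SE 0.13, adjusted p = 5.32e-10) and Gk, glycerol kinase, by 1.48 (SE 0.19, adjusted p = 5.02e-06). Lpin1 was also higher with KCs in the LSEC fraction, by 1.54 (SE 0.13, adjusted p = 1.30e-07), and differed from its change in hepatocytes by 1.38 (SE 0.18, adjusted p = 1.72e-05). Its mean was 11.31 ± 0.10 in that fraction and 9.38 ± 0.21 in 3DHLK hepatocytes (SD, n = 3). Lpin2, of the same family, was lower with KCs in hepatocytes (log2 change -0.46, adjusted p = 0.0291) and in the LSEC fraction (log2 change -0.53, adjusted p = 0.0173). In the KC fraction against KC monolayers 12 genes rose and 4 fell, where 44.5% of all genes were called higher and 20.8% lower. The rises were led by Gpd1, which makes glycerol phosphate, at 4.50 and Mttp, which loads triglyceride onto lipoproteins, at 3.19. All 11 hepatocyte markers rose and all 10 macrophage markers fell in that comparison, and their part in these changes was not tested.

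Of 18 genes of lipid droplets and lipolysis, 9 rose in 3DHL hepatocytes against HM and none fell, with a median of 0.44. Only 2 of the 10 members rose in the same comparison, where 7.04% of all genes were called higher and 4.7% lower. Plin2, which coats lipid droplets, rose by 0.82 (SE 0.11, adjusted p = 3.37e-05), and G0s2, an inhibitor of the triglyceride lipase encoded by Pnpla2, by 0.90 (SE 0.22, adjusted p = 0.00848). G0s2 rose further with KCs in hepatocytes by 1.75 (SE 0.22, adjusted p = 3.81e-06) but lay at 12.37 and 12.33 in the LSEC fractions of the 3DHL and 3DHLK models, a difference of the KC effects of -1.79 (SE 0.31, adjusted p = 0.000378). In the LSEC fraction Pnpla2 rose with KCs by 0.64 (SE 0.15, adjusted p = 0.00777). In the KC fraction, Cidec and Cidea, proteins of lipid droplet fusion, exceeded KC monolayers by 4.55 and 3.71. The part of the marker shift between these KC groups, hepatocyte markers higher and macrophage markers lower, was not tested. Over all 74 measured genes of these 5 lists, 38 rose and 1 fell in CS against HM, 14 rose and 2 fell in 3DHL hepatocytes against HM, 4 rose and 2 fell with KCs in hepatocytes, and 11 rose and 2 fell with KCs in the LSEC fraction. Of all genes, 11.1% and 10.7%, 7.04% and 4.7%, 7.72% and 3.76%, and 3.58% and 3.89% were called higher and lower in these 4 comparisons, so the counts with KCs in hepatocytes lay near the shares of all genes.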

How the data were processed

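RNA of 23 arrays in 8 groups was assigned to groups from the sample labels. The authors processed the arrays with RMA in R and deposited log2 values, 1 for each probe set, that had been background corrected, quantile normalized and summarized over probes, with an RMA version not given in the sources used. The values carry no detection calls, so signal over background is unknown, and precision is limited by how many arrays there are. Of 31099 probe sets, 57 were controls, 20832 named 1 gene, 436 several and 9774 none by the platform annotation, and only those with 1 gene were tested.

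Comparisons were fitted in R 4.3.3 by limma 3.58.1 (lmFit on 8 group means, contrasts, eBayes) in 11 comparisons, two-sided, with Benjamini-Hochberg adjustment over 14218 genes. With 3 arrays a group (2 for 3DHLK KCs), the fit had 15 residual degrees of freedom. Code was tested on simulated data. Named were all 10 genes with their 20 probe sets, 4 regulators (Srebf1, Mlxipl, Nr1h3 and Insig1) in each comparison, up to 2 called rises and 2 called falls of each other list in a comparison, of which a part is printed, and the 2 genes closest to each member by Pearson correlation over 20 arrays. Uncharacterised loci were skipped when the closest genes were picked. Genes named as markers, such as Stab2 and Col1a1, were chosen after their values were seen. The members and gene lists were chosen with earlier results of these data known. Listed genes without a probe set of their own were not analysed here.

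Alternatives were to fit the compared arrays alone, to average all probe sets for each gene, to block on the replicate number, to drop genes below the 30th percentile, and to use cyclic loess, centring on 15 housekeeping genes, trended and robust eBayes, leaving out the KC monolayers, and leaving out each array. The labels and files give no batch or date. Promoters came from RefSeq (GRCr8). Figures come from Python 3.11.15 with matplotlib 3.10.9.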

Additional observations from a re-analysis of the deposited data

Results flagged for a closer look

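For 3 of the 10 genes the change from the 3DHL to the 3DHLK model differed between the LSEC and hepatocyte fractions by limma's test of the difference itself. For Pnpla3 the difference was 1.04 on the log2 scale (adjusted p = 0.013). All 3 LSEC arrays of the 3DHLK model lay above those of the 3DHL model, where 37.3% of all genes had no overlap, and the hepatocyte arrays overlapped. The difference lay between 0.90 and 1.44 over 31 alternatives and passed the threshold in 30 of them. Many of these, such as leaving out an HM, CS or KC array, keep the difference itself and change only its error and adjusted p. For Dgat2 the difference was 0.67 (adjusted p = 0.0021), with a rise in the LSEC fraction and a fall in hepatocytes, and it passed in all 31 alternatives at 0.55 to 0.70. For Me1 the difference was 0.64 (adjusted p = 0.0378), and it passed in 18 of 31 alternatives at 0.52 to 0.79. The second probe sets of Me1 and Dgat2 gave differences of 0.64 and 0.57 that were not called.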

How the results depend on the processing

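In 7 of the 11 comparisons the count of called genes of the 10 stayed within 1.5 times its value under each alternative run. For 3DHL hepatocytes against HM it was 2, became 1 under cyclic loess and 0 under housekeeping centring (3 at an unadjusted p under 0.05), and lay between 0 and 2 without 1 array (0 without HM array 1 or 3DHL array 2, with 2 at an unadjusted p under 0.05 in each, and 1 without each of the others). For 3DHLK against 3DHL hepatocytes it lay between 3 and 6, with 3 without 3DHL array 2 or 3DHLK array 1. For the LSEC fractions of these models it lay between 4 and 7, with 4 without 3DHL array 1 or 2 or 3DHLK array 2 or 3. For the difference of the KC effects it was 3, became 5 with only the arrays compared and 5 without the KC monolayers, and lay between 2 and 5 without 1 array (5 without KC monolayer array 1).

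Changes that turned sign were not called in the full fit, with the exception of Me1 in KCs of the 3DHLK model against monolayers (0.49), at -0.22 under cyclic loess. In that comparison cyclic loess gave -0.56 for Acaca, -0.27 for Acly and -0.30 for Elovl6, and housekeeping centring gave -0.13 for Acaca and -0.17 for Elovl6. Without 1 array these lay between -0.14 and 0.32 for Acaca and between -0.21 and 0.20 for Elovl6. For 3DHL hepatocytes against HM, Gpam was at -0.074 under cyclic loess and -0.025 under housekeeping centring and between -0.0038 and 0.11 without 1 array, and Thrsp was at -0.0065 under cyclic loess and between -0.041 and 0.18 without 1 array. For 3DHL hepatocytes against CS, Me1 was at -0.0059 under cyclic loess, -0.014 with the mean of all probe sets and between -0.032 and 0.11 without 1 array. With that mean, Pnpla3 was at -0.033 in 3DHLK against 3DHL hepatocytes, Dgat2 at 0.080 in LSECs against hepatocytes of the 3DHL model and Acaca at 0.11 in the difference of the KC effects. Without 1 array, Pnpla3 in the first of these lay between -0.037 and 0.21, and in LSECs against hepatocytes of the 3DHLK model Me1 lay between -0.16 and 0.074 and Elovl6 between -0.014 and 0.26. The cause was not tested.

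For arrays of the same replicate number, deviations from the group means had correlations of -0.36 to 0.34, with 13 of 77 pairs above 0.1. Other pairs of arrays of different groups had 35 of 154 above 0.1. Same-numbered pairs were at 0.066 to 0.11 between the LSEC groups and 0.22 to 0.24 between the KC groups. They were at -0.35 to -0.32 between 3DHLK hepatocytes and KCs. Deviations from means of 2 or 3 arrays are tied to one another, so this check cannot settle whether the numbers pair arrays. With the replicate number as a block, 108 of 110 changes kept their call, while Acaca in 3DHLK against 3DHL LSECs (0.47) lost it at an adjusted p of 0.0676 and Gpam in LSECs against KCs (0.46) gained it at 0.0271, and the counts were 6 and 8. Scaling moved all genes in places. The median over all genes in KCs of the 3DHLK model against monolayers was 0.27, but 0.04 under cyclic loess and 0.05 under housekeeping centring, which changed the split of all genes called higher and lower from 6324 and 2954 to 4605 and 4398 or 4737 and 3960. For LSECs against hepatocytes of the 3DHL model the centring moved it to 0.13 and the split from 2624 and 3113 to 3558 and 2600. For 3DHL hepatocytes against HM the split moved from 1001 and 668 to 884 and 1107 under cyclic loess and to 822 and 967 under the centring. The centring gave 483 and 870 in place of 509 and 553 for 3DHLK against 3DHL LSECs, and cyclic loess 1468 and 1257 in place of 1384 and 761 for LSECs against KCs.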
